A study of Mus musculus with 6 samples.

Results

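The genes for translation initiation factors were followed in splenic CD11b+Gr-1high cells of mice, a sorted cell fraction rich in neutrophils and their precursors. Members were the probes whose symbol on the platform begins with Eif and a number from 1 to 6, without the Eif2ak kinases, and whose detection p-value was under 0.05 on at least 2 of 6 arrays. That rule kept 64 of 89 Eif probes, among 17631 of the platform's 45281 probes, and 36 of 47 Eif genes, among 9548 named genes. The detection p-value sets a probe's signal against the negative controls of the same array, and no difference between groups entered the rule. RNA was measured on Illumina bead arrays in 3 groups of 2 arrays each, all of H-2b background. The AT-3 group was wild-type mice carrying a tumor of AT-3, a mouse mammary carcinoma line. The KO group was mice lacking the transcription factor IRF8 and carrying no tumor, and the WT group was wild-type mice with no tumor. The cells were sorted in independent experiments, and the labels give no age or sex and do not say how many animals stand behind an array, so p-values measure only the spread between these samples, which may be technical. The comparisons ask how the tumor and how the loss of IRF8 alter this fraction.

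Translation starts when a small ribosomal subunit carrying initiator tRNA is loaded onto an mRNA, scans to a start codon and is joined by the large subunit. eIF2 brings the initiator tRNA, eIF2B recharges eIF2 with GTP, eIF3 is the large scaffold on the small subunit, and the eIF4 proteins bind the mRNA cap and unwind the leader. The 4E-binding proteins hold the cap-binding protein back when mTOR is inactive, and the step is known as a main control point of protein output in growing and dividing blood cell precursors.

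The promoters of 29 of the 36 genes were matched in RefSeq on mouse build GRCm38.p6, as 39 windows of 300 bases, with 250 bases before and 50 after the transcription start. Each window was searched on both strands for the E-box CACGTG, the letters read by Myc and related factors, for CCGGAAG, a core read by ETS factors, and for AAGATGGC, a YY1 core. The E-box stood in 23.1% of these windows, against 7.15% of all 32851 mouse windows, the ETS core in 35.9% against 8.86%, and the YY1 core in 10.3% against 2.75%. Windows of 1 gene can overlap and hold the same site, as those of Eif4e2 do. Counted as genes, the E-box stood in 7 of 29, the ETS core in 11 and the YY1 core in 4. All mouse genes were not counted in this way, so these gene counts have no share to stand beside. All of these are matches of letters, with no measure of binding. The 5 windows printed here were picked from genes that changed in the comparisons below and hold a motif, which is given in capitals. Of the other genes that changed, Eif2a, Eif2b1, Eif2d, Eif2s2, Eif3b and Eif5b held none of the motifs. Eif2b3, Eif3i, Eif4e3, Eif4ebp1 and Eif4g2 had no matched window. In Eif3k (chr7:28981839-28982138, minus strand) the E-box stood 44 bases before the start. In the others CTTCCGG, the ETS core on the opposite strand, stood 68 and 34 bases before the start of Eif3c (chr7:126566317-126566616, minus strand), 70 before that of Eif3d (chr15:77970775-77971074, minus strand), 35 before that of Eif3l (chr15:79074973-79075272, plus strand) and 124 before that of Eif4ebp2 (chr10:61452620-61452919, minus strand). No printed window held more than 1 kind of motif, while that of Eif1b, which also changed and is not printed, held an E-box and an ETS core.
Eif3k: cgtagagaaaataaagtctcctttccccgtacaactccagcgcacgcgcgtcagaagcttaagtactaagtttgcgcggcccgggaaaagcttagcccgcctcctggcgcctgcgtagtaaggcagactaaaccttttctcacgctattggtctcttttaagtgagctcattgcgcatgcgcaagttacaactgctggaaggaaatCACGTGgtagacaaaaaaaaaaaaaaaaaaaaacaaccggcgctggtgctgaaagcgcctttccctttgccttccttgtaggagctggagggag
Eif3c: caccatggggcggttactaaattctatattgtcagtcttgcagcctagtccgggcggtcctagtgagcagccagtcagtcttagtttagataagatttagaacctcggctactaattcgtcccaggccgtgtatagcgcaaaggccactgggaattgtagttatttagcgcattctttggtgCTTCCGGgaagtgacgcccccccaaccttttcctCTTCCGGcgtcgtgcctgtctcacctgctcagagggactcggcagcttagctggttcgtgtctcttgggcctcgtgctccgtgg
Eif3d: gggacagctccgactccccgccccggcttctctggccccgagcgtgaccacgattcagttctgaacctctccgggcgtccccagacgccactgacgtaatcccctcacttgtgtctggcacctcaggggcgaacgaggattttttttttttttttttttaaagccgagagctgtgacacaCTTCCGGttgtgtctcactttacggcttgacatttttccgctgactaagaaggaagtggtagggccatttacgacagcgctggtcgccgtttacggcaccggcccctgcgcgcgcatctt
Eif3l: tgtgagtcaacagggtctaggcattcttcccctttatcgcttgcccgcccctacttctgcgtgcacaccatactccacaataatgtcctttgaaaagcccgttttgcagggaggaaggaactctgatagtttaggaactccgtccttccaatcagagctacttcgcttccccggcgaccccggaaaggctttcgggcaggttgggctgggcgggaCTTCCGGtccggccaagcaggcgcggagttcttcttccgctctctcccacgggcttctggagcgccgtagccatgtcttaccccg
Eif4ebp2: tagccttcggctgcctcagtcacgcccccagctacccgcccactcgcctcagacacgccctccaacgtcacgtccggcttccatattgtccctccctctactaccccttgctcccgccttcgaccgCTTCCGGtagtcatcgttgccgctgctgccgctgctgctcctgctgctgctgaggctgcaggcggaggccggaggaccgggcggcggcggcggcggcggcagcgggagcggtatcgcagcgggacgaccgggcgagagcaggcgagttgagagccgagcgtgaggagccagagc

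Mean raw signal was 284 and 265 on AT-3 arrays, 407 and 421 on KO arrays and 397 and 379 on WT arrays, and each array detected 31.0% to 38.4% of its probes. Irf8 itself read 8.82 and 8.09 on AT-3 arrays, 4.85 and 5.34 on KO arrays and 6.86 and 6.70 on WT arrays on the normalized log2 scale. Irf8 therefore stood lowest on the arrays labelled KO (-1.69 against WT, adjusted p = 0.00607 in limma, lost without WT array 1 at -1.61, adjusted p = 0.0514) and was still detected there. Where its probe lies relative to the deleted part is not given in the sources used here. All 11 neutrophil list genes with a probe were detected, of which 4 rose and 2 fell in AT-3 and 3 rose and 2 fell in KO against WT cells, and 1 rose and 2 fell in AT-3 cells with no scaling. Those that rose against WT cells after quantile scaling were Itgam, Camp, Ngp and Mmp8 in AT-3 cells and Itgam, Camp and Ngp in KO cells. Each of these AT-3 calls, and the KO call of Camp, was lost in some of the fits that left out an array. Csf3r and Cxcr2, receptors of mature neutrophils, fell in AT-3 (-2.08 and -1.06) and KO cells (-2.25 and -2.06). Their AT-3 calls were lost without WT array 1 (adjusted p = 0.0509 for Csf3r and 0.167 for Cxcr2) or WT array 2 (adjusted p = 0.0555 and 0.171), and that of Cxcr2 without AT-3 array 1 (-0.66, adjusted p = 0.206). Summed linear signal of the list was 190561 and 199111 on AT-3 arrays, 165689 and 180047 on KO arrays and 156112 and 160567 on WT arrays. Of the marker lists of other states and cells, 11 of 12 cell cycle genes and 5 of 5 primary granule genes rose in each of AT-3 and KO cells against WT cells. Some of these calls were lost in fits that left out an array. In both comparisons these were calls of Mcm2, Mcm3, Mcm6, Rrm2 and Prtn3. In KO cells that of Mcm5 was lost too, and in AT-3 cells that of Ms4a3. The KO difference ranged over those fits from 1.03 to 3.75 for Mcm2 and from 1.24 to 4.38 for Mcm6. Summed linear signal of the cell cycle genes was 7973 and 9823 on AT-3 arrays, 17397 and 4498 on KO arrays and 613 and 590 on WT arrays, with Ccnb2, Ccna2, Bub1 and Pcna not detected. The sum for the primary granule genes was 6976 and 10446 on AT-3 arrays, 47208 and 3977 on KO arrays and 242 and 222 on WT arrays. Of 10 monocyte and macrophage genes, 2 rose and 8 fell in AT-3 cells and 10 fell in KO cells against WT cells, with sums of 1832 and 2587 on AT-3 arrays, 845 and 718 on KO arrays and 13590 and 11602 on WT arrays, and Cd300e not detected. Of 3 erythroid genes, 3 rose in AT-3 cells and 2 fell in KO cells, with sums of 46251 and 31621 on AT-3 arrays, 186 and 274 on KO arrays and 5593 and 4368 on WT arrays, and Klf1 and Epor not detected. Of other lineages, 1 of 5 dendritic genes fell in each of AT-3 and KO against WT cells, 1 of 3 B cell and 3 of 6 T and NK cell genes rose in KO cells and none in AT-3 cells, where 4 T and NK cell genes rose under detected-probe scaling, and 2 of 4 megakaryocyte genes rose and 2 fell in KO cells with 1 falling in AT-3 cells. The KO calls of Cd79b, Cd3e, Cd8b1 and Nkg7 were each lost without WT array 1 (adjusted p = 0.0894, 0.143, 0.0624 and 0.068). Without WT array 2 those of Cd3e, Cd8b1 and Nkg7 were lost (adjusted p = 0.0587, 0.0863 and 0.0776), without KO array 1 that of Cd79b (adjusted p = 0.0513) and without KO array 2 that of Cd3e (adjusted p = 0.0622). Also lost in some fits that left out an array were the KO calls of Ccr2, Alas2 and Gp1bb and the AT-3 calls of Csf1r and Fcgr1. The KO fall of Itga2b was lost whichever array was left out (-0.92 to -0.57). The part of these marker shifts in the differences of Eif genes was not tested, and in sorted bulk cells fewer cells of a type and less RNA per cell cannot be told apart.

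Levels below are normalized log2 signals, read at a gene's brightest detected probe, and differences are log2 differences with their standard error (SE) from limma over 2 arrays per group. A gene rose or fell where its Benjamini-Hochberg adjusted p over all 17631 tested probes was under 0.05. An exact test of 2 against 2 arrays cannot go below p = 0.333, so no single gene was tested by permutation. Of the 36 genes, 33 were read at probes detected on all 6 arrays. The exceptions were Eif2s3y, Eif4b and Eif5b, which passed the detection rule through some arrays only. The 11 genes with no detected probe, which are not described further, were Eif1ax, Eif2s3x-ps1, Eif3e, Eif3h, Eif3j1, Eif3m, Eif4e, Eif4e1b, Eif4ebp3, Eif4g3 and Eif5a2. Of the 25 probes left out, 20 were detected on 0 arrays and 5, for Eif3a, Eif3b, Eif3h, Eif3j1 and Eif3k, on 1 array. Just inside the rule stood 1 Eif6 probe, detected on exactly 2 arrays.

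Against WT cells, 12 of the 36 Eif genes rose in AT-3 cells, 1 fell and 23 did not pass the test, a called share of 36.1% beside 35.6% of all named genes. Among all named genes 18.1% rose and 17.5% fell, so the Eif genes were called as often as other genes, and 12 of the 13 calls were upward after quantile scaling. Under all-probe scaling, in which the arrays share 1 median over every probe, 2 rose and 10 fell, and with no scaling 2 rose and 11 fell. The calls of all named genes shifted downward too (6.67% higher and 38.6% lower, and 6.35% and 40.3%). Under both, 20 of the 36 Eif genes lay above the median of all named genes. These scalings differ only by a constant per array, so that count is the same in both by construction. The Eif median was 0.60 beside 0.01 for all named genes, and 28 of 36 lay above 0, beside 50.7% of all named genes. In KO cells 7 rose against WT cells, 2 fell and 27 did not pass, which is 25% beside 33.5% of all named genes, of which 16.4% rose and 17.1% fell. The KO median was 0.37 beside -0.01, with 27 of 36 above 0, beside 49.6% of all named genes. Between AT-3 and KO cells 2 rose in AT-3 cells, 2 fell and 32 did not pass, which is 11.1% beside 11.2%, of which 6.39% rose and 4.86% fell. The AT-3 and KO comparisons share the WT arrays, so likeness between them is not independent. In AT-3 against WT cells 5 rose and 0 fell without WT array 1, 3 and 0 without WT array 2, 6 and 0 without AT-3 array 1 and 9 and 0 without AT-3 array 2. In KO against WT cells 2 rose and 0 fell without WT array 1 or WT array 2, and 3 and 0 without KO array 1. Between AT-3 and KO cells 0 rose and 0 fell without WT array 1, WT array 2, KO array 2 or AT-3 array 2, 0 and 2 without AT-3 array 1, and 3 and 1 without KO array 1.

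**Figure D1:**
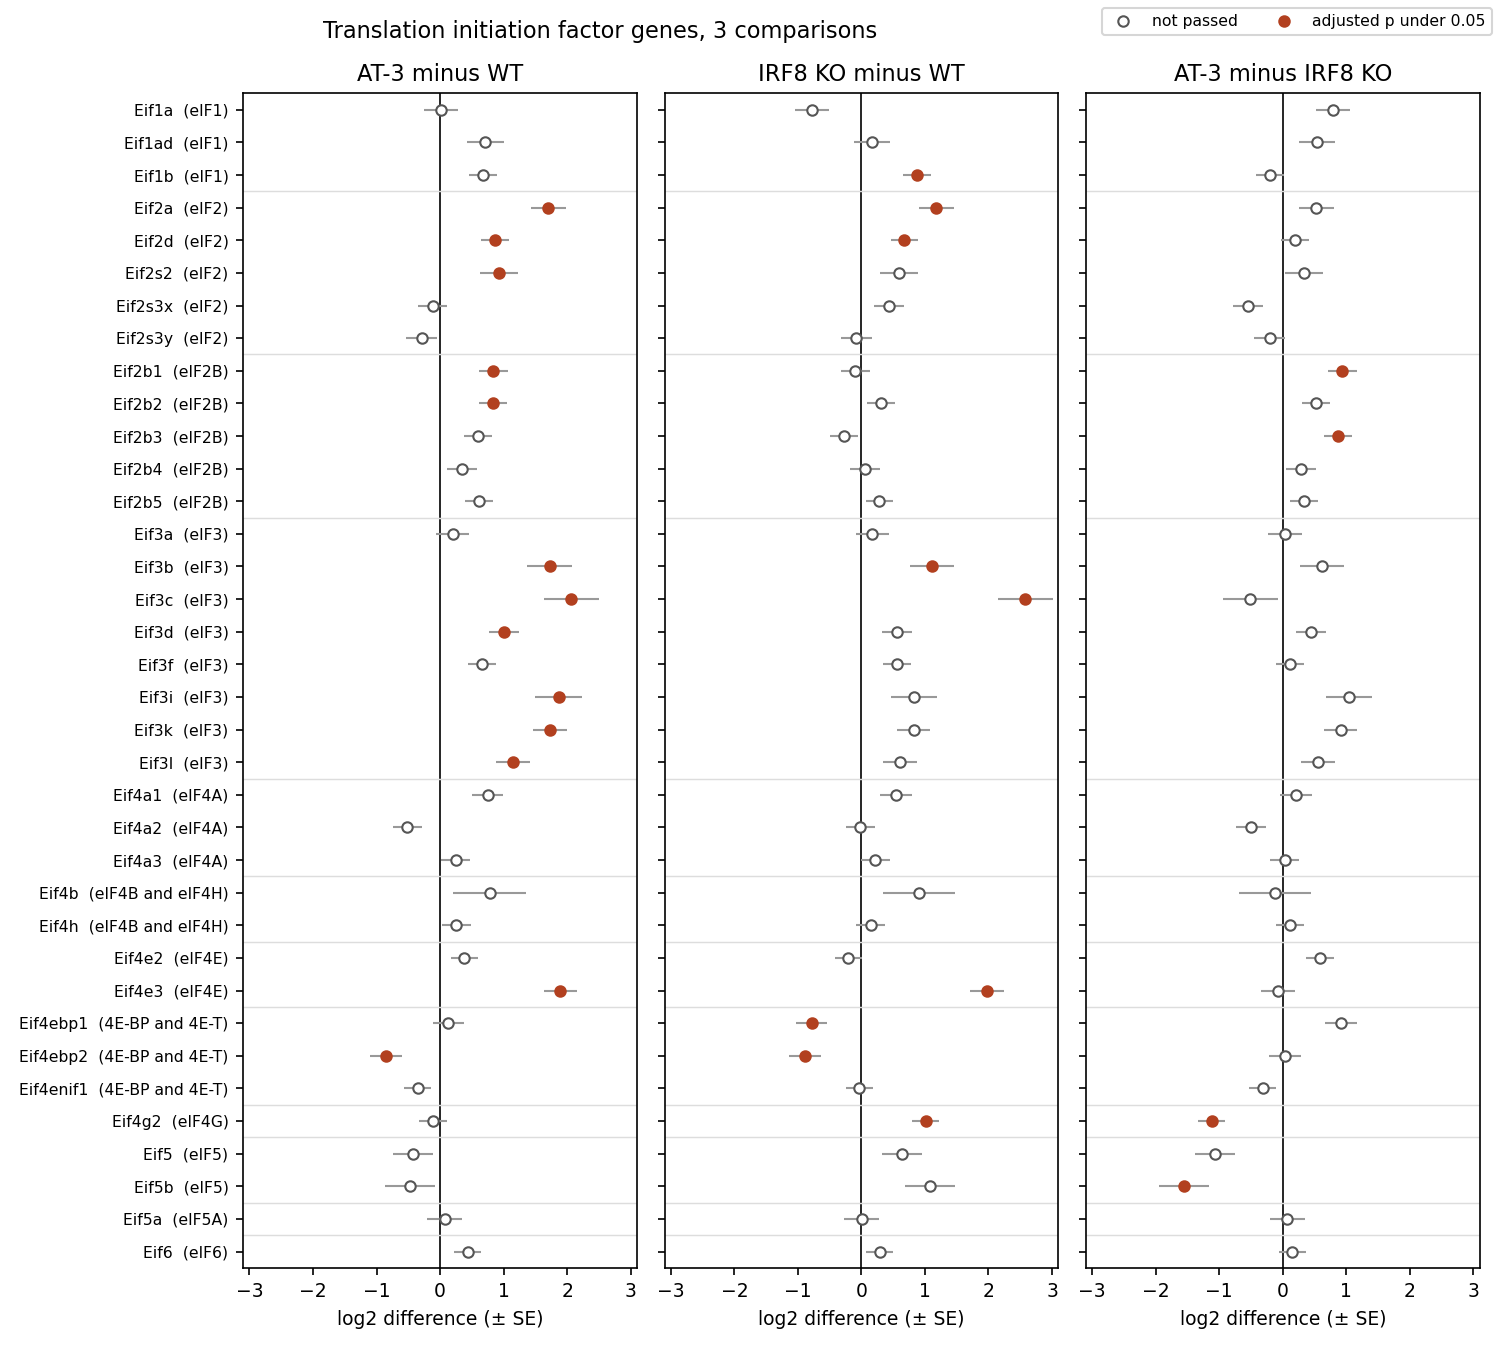
Log2 differences (x axis, points with SE bars) of the 36 Eif genes, grouped by factor, for AT-3 minus WT, IRF8 KO minus WT and AT-3 minus IRF8 KO, 2 arrays per group; filled points have an adjusted p under 0.05. In the AT-3 minus WT panel 12 filled points lie above 0 and 1 below; under quantile scaling 28 of the 36 lie above 0, against 11 with no scaling between arrays.

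How the arrays were scaled moved the whole distribution. Under all-probe scaling, the median of all named genes was -0.43 in AT-3 against WT cells and that of the Eif genes -0.30; with no scaling they were -0.49 and -0.36, and under detected-probe scaling, in which they share 1 median over the detected probes, 0.35 and 0.48. Relative to all named genes, the Eif median was thus higher by 0.59 after quantile scaling and by 0.13 under the other 3 scalings. Those 3 differ from each other only by a constant per array, so they give the same excess by construction. In KO against WT cells the Eif median stood above that of all named genes by 0.38 after quantile scaling and by 0.35 under each of the others. Between AT-3 and KO cells the excess was 0.19 and 0.06. The share of all named genes called higher in AT-3 than in WT cells moved as well: under detected-probe scaling 31.9% were higher and 17.1% lower. Eif3c and Eif4e3 rose and Eif4ebp2 fell in AT-3 cells under all 4 scalings.

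**Figure D2:**
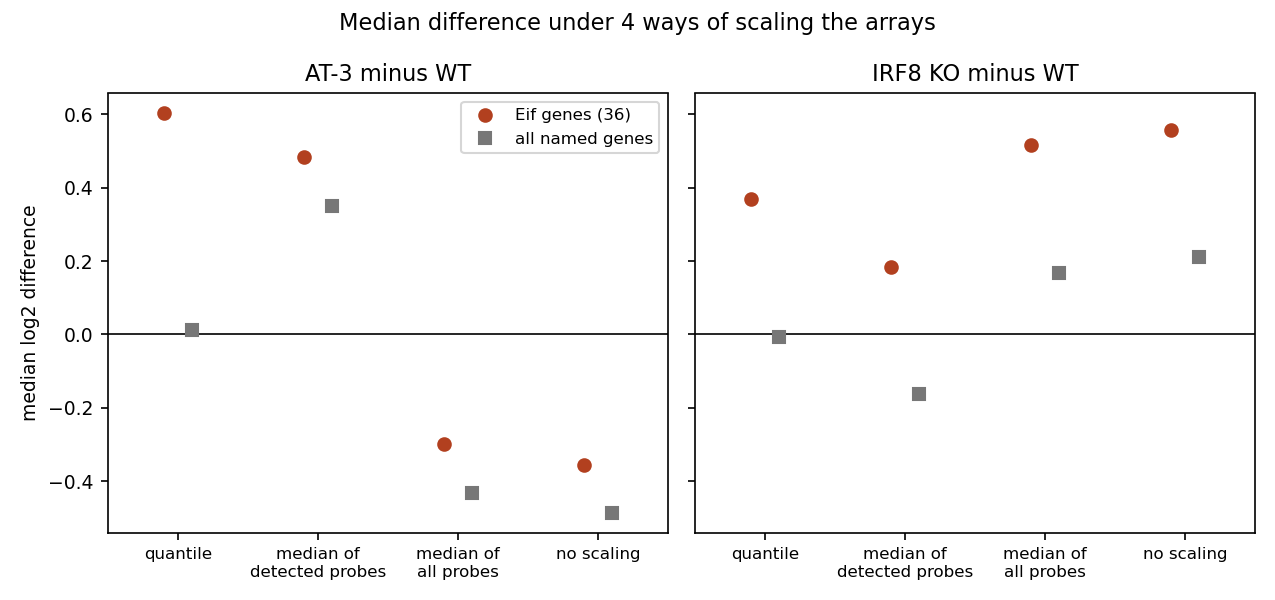
Median log2 difference (y axis) of the 36 Eif genes and of all named genes under 4 ways of scaling the arrays (x axis), for AT-3 minus WT and IRF8 KO minus WT. In AT-3 minus WT both medians lie above 0 after quantile scaling (0.60 and 0.01) and below 0 with no scaling (-0.36 and -0.49), with the Eif genes above all named genes in each.

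Of 8 eIF3 genes, 6 rose in AT-3 cells against WT cells and 2 rose in KO cells, beside 18.1% and 16.4% of all named genes. None fell in either, and all 8 lay above 0 in both comparisons after quantile scaling, whereas 5 did in AT-3 cells with no scaling. The median was 1.44 in AT-3 against WT cells and 0.71 in KO against WT cells. Relative to all named genes it was higher by 1.42 and 0.72 after quantile scaling. Under the other scalings, which give the same excess by construction, it was higher by 0.945 and 0.58. The KO share of 2 in 8 equals the called share of all Eif genes and lies below the 33.5% called among all named genes. Between AT-3 and KO cells 0 of the 8 passed in limma, with 2 at an unadjusted p under 0.05, and 7 lay above 0, against 1 with no scaling.

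Eif3i, the propeller subunit that docks on Eif3b, was among the brightest. It read 12.37 and 12.10 on AT-3 arrays, 11.77 and 10.62 on KO arrays and 10.37 and 10.36 on WT arrays. Both AT-3 arrays stood above all others, and the KO arrays were spread between them and the WT arrays. Eif3i rose 3.65-fold in AT-3 against WT cells (1.87, SE 0.37, adjusted p = 0.00826), while KO against WT did not pass (0.82, SE 0.37, adjusted p = 0.129). All 3 of its probes rose in AT-3 cells (1.87, 2.04 and 1.80), and the dimmest also rose against KO cells (1.40, adjusted p = 0.0274). The AT-3 call of the brightest probe was lost without WT array 1 (1.87, adjusted p = 0.0549), WT array 2 (1.86, adjusted p = 0.0595) or AT-3 array 1 (1.73, adjusted p = 0.0527). All-probe scaling removed it as well (0.97, adjusted p = 0.0677), as did leaving the arrays unscaled (0.92, adjusted p = 0.0716).

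Eif3k, a peripheral subunit that pairs with Eif3l, read 9.80 and 9.58 on AT-3 arrays, 9.08 and 8.47 on KO arrays and 7.95 and 7.97 on WT arrays. The groups did not overlap and stood in the order AT-3, KO, WT. Eif3k rose 3.32-fold in AT-3 against WT cells (1.73, SE 0.26, adjusted p = 0.00345), a call kept without any 1 array. It was lost under all-probe scaling (0.83, adjusted p = 0.0515) or with the arrays unscaled (0.78, adjusted p = 0.0609). The KO difference from WT was 0.82 (adjusted p = 0.0503) and that of AT-3 from KO cells 0.91 (adjusted p = 0.0695), so the neighbouring groups in that order did not pass.

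Eif3c, a core subunit that contacts eIF1 and eIF5, read 7.82 and 7.67 on AT-3 arrays, 8.71 and 7.81 on KO arrays and 6.27 and 5.09 on WT arrays. All AT-3 and KO arrays stood above both WT arrays, which differed from each other by 1.17. WT array 2 was near its limit of detection, at 5.09 beside a lowest detected signal of 4.955. In KO cells array 1 stood above array 2 as well, by 0.89. Eif3c rose 4.19-fold in AT-3 against WT cells (2.07, SE 0.43, adjusted p = 0.0105) and 5.98-fold in KO against WT cells (2.58, SE 0.43, adjusted p = 0.00447). The KO call was kept without any 1 array, at 3.17 without WT array 1 and 1.99 without WT array 2. The AT-3 value was 2.65 without WT array 1, and the call was lost with no filter on dim probes (adjusted p = 0.0547), without WT array 2 (1.48, adjusted p = 0.0709) or AT-3 array 1 (1.99, adjusted p = 0.0598). With no background correction the differences were 1.00 in AT-3 and 1.37 in KO against WT cells, and both kept their calls. The AT-3 value was 1.39 under all-probe scaling and 1.34 with the arrays unscaled. Its other detected probe, which was dimmer, did not pass in AT-3 (0.16) or KO cells (0.22) against WT cells.

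Eif3b, the core subunit that carries Eif3i, read 7.89 and 8.11 on AT-3 arrays, 7.81 and 6.95 on KO arrays and 6.59 and 5.96 on WT arrays. AT-3 arrays were highest and WT arrays lowest, with no overlap. Eif3b rose 3.30-fold in AT-3 against WT cells (1.72, SE 0.35, adjusted p = 0.00908) and 2.15-fold in KO against WT cells (1.11, SE 0.35, adjusted p = 0.0463). The AT-3 call was lost without WT array 2 (1.41, adjusted p = 0.0774), under all-probe scaling (1.04, adjusted p = 0.0677) or with the arrays unscaled (0.98, adjusted p = 0.074). With no background correction the AT-3 value was 0.97 (adjusted p = 0.0155) and the KO call was lost (0.58, adjusted p = 0.077). The KO call was lost without WT array 1 (1.42, adjusted p = 0.072), WT array 2 (0.79, adjusted p = 0.272), KO array 1 (0.68, adjusted p = 0.207) or either AT-3 array (1.11, adjusted p = 0.0684).

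The remaining eIF3 genes moved less. Eif3d, a subunit that can itself bind the cap, read 11.50 and 11.35 on AT-3 arrays, 11.20 and 10.75 on KO arrays and 10.42 and 10.42 on WT arrays, and rose 2.00-fold in AT-3 against WT cells (1.00, SE 0.24, adjusted p = 0.0164) after quantile scaling, where no scaling put it at -0.03. Eif3l read 11.47 and 11.34 on AT-3 arrays, 11.18 and 10.53 on KO arrays and 10.31 and 10.20 on WT arrays, and rose 2.22-fold in AT-3 against WT cells (1.15, SE 0.27, adjusted p = 0.0152). In both genes the KO arrays lay between AT-3 and WT arrays without passing against WT (0.55 for Eif3d and 0.60 for Eif3l). Without WT array 1, WT array 2 or AT-3 array 1 the call of Eif3d was lost (1.00, 1.00 and 0.93, adjusted p = 0.0975, 0.102 and 0.0734), as was that of Eif3l (1.21, 1.09 and 1.08, adjusted p = 0.0787, 0.104 and 0.0716). Under all-probe scaling both were near 0 (0.03 and 0.20, adjusted p = 0.938 and 0.612), and Eif3l was at 0.14 with no scaling (adjusted p = 0.723). Eif3f, the brightest eIF3 gene, did not pass in AT-3 against WT cells at its brightest probe (0.66, adjusted p = 0.0526) but rose at its other probe (0.99, adjusted p = 0.0143). Between AT-3 and KO cells Eif3f differed least among the 9 brightest Eif genes (0.11), with 13.08 and 12.86 on AT-3 arrays and 12.95 and 12.77 on KO arrays, beside 12.37 and 12.24 on WT arrays. Eif3a, the backbone of the scaffold, differed from WT cells by 0.20 in AT-3 cells and 0.17 in KO cells, and did not pass in either.

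**Figure D3:**
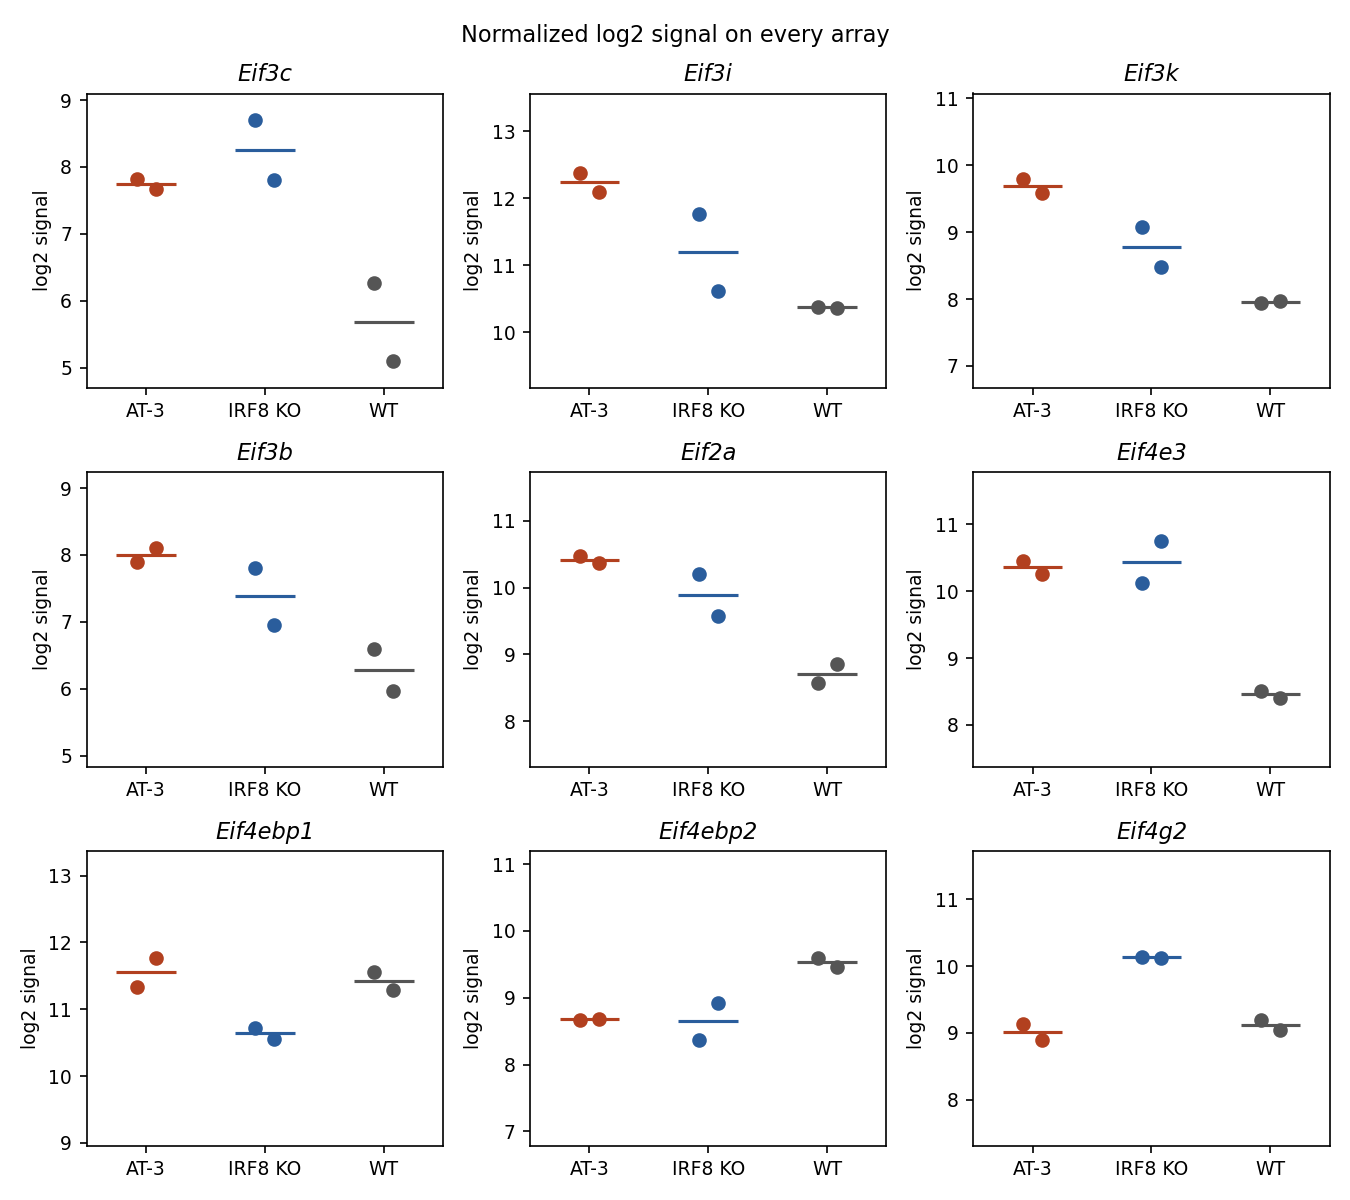
Normalized log2 signal (y axis, a span of 4.4 in each panel) of 9 Eif genes on every array of the AT-3, IRF8 KO and WT groups after quantile scaling; points are arrays and lines are means of 2 arrays. Eif3c, Eif3k, Eif3b, Eif2a and Eif4e3 have all AT-3 and KO points above all WT points, Eif4ebp2 has them below, and Eif4g2 has only its KO points apart.

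Among the proteins that handle initiator tRNA, Eif2a and Eif2d rose in both AT-3 and KO cells. Neither is a subunit of eIF2; both can deliver tRNA without it. Of the 5 genes grouped here, 3 rose in AT-3 cells and 2 in KO cells against WT cells and none fell, after quantile scaling. Among all named genes 18.1% rose in AT-3 and 16.4% in KO cells. Under all-probe scaling or with no scaling 0 of the 5 rose and 1 fell in AT-3 cells. Eif2a read 10.47 and 10.36 on AT-3 arrays, 10.20 and 9.57 on KO arrays and 8.57 and 8.85 on WT arrays, so all AT-3 and KO arrays stood above the WT arrays. It rose 3.26-fold in AT-3 against WT cells (1.70, SE 0.27, adjusted p = 0.00398), a call kept without any 1 array, and 2.26-fold in KO against WT cells (1.18, SE 0.27, adjusted p = 0.0154). The AT-3 call was lost under all-probe scaling (0.74, adjusted p = 0.0717) or with the arrays unscaled (0.68, adjusted p = 0.0826), and the KO call without WT array 1 (1.04, adjusted p = 0.114), WT array 2 (1.32, adjusted p = 0.0666) or KO array 1 (0.86, adjusted p = 0.0591).

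Eif2d read 7.98 and 8.20 on AT-3 arrays, 7.88 and 7.92 on KO arrays and 7.17 and 7.28 on WT arrays. It rose in AT-3 against WT cells (0.86, SE 0.21, adjusted p = 0.0195) and in KO against WT cells (0.67, SE 0.21, adjusted p = 0.0489). Its second probe, which was dim, passed in neither AT-3 (-0.21, adjusted p = 0.619) nor KO cells (0.54, adjusted p = 0.213), and with the mean of both probes both calls were lost (0.33, adjusted p = 0.273 in AT-3 and 0.60, adjusted p = 0.0654 in KO cells). Leaving out any 1 of the 6 arrays ended the KO call (0.62 to 0.73, adjusted p = 0.0546 to 0.235), and the AT-3 call was lost without WT array 1 (0.81, adjusted p = 0.13), WT array 2 (0.92, adjusted p = 0.102) or AT-3 array 2 (0.75, adjusted p = 0.0794). Eif2s2, the beta subunit of eIF2, read 8.09 and 7.63 on AT-3 arrays, 7.86 and 7.18 on KO arrays and 6.84 and 7.03 on WT arrays, and rose in AT-3 against WT cells (0.93, SE 0.30, adjusted p = 0.0485). Its second probe rose as well (1.16, adjusted p = 0.0227). With no background correction the call of the brightest probe was lost (0.57, adjusted p = 0.061). At the brightest probe the call was lost without WT array 1 (0.83, adjusted p = 0.216), WT array 2 (1.02, adjusted p = 0.148), AT-3 array 1 (0.70, adjusted p = 0.206) or AT-3 array 2 (1.16, adjusted p = 0.0623). The calls of Eif2d and Eif2s2 in AT-3 cells were also lost under all-probe scaling (0.12 and 0.23, adjusted p = 0.693 and 0.636) or with the arrays unscaled (0.07 and 0.17, adjusted p = 0.841 and 0.718).

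The gamma subunit of eIF2, which holds the GTP, has an X-linked and a Y-linked gene. Eif2s3x read 8.43 and 8.33 on AT-3 arrays, 9.02 and 8.85 on KO arrays and 8.68 and 8.32 on WT arrays, and did not pass in any comparison. Eif2s3y read 4.86 and 4.80 on AT-3 arrays, 4.83 and 5.24 on KO arrays and 4.97 and 5.27 on WT arrays, near the limit of detection on all of them. Xist, the RNA of the inactive X chromosome, read 8.38 and 7.58 on AT-3 arrays, 8.67 and 7.84 on KO arrays and 6.58 and 6.80 on WT arrays. Xist thus stood above the WT arrays in both of the other groups. The Y-linked Uty was detected on 0 AT-3, 2 KO and 2 WT arrays, and Kdm5d on none.

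The eIF2B complex exchanges GDP for GTP on eIF2 and is the enzyme that phosphorylated eIF2 blocks. All 5 of its genes lay above 0 in AT-3 against WT cells and 2 rose after quantile scaling, where 18.1% of all named genes rose. With no scaling 0 rose and 1 of 5 lay above 0, while 4 of 5 lay above the median of all named genes, as a group by 0.37. In KO against WT cells 0 of the 5 passed in limma, with 0 at an unadjusted p under 0.05, and the median was 0.06. Eif2b1, the alpha subunit that senses phosphorylated eIF2, read 8.74 and 8.48 on AT-3 arrays, 7.83 and 7.53 on KO arrays and 7.78 and 7.76 on WT arrays. The AT-3 arrays stood apart from both other groups, which overlapped. Eif2b1 rose in AT-3 against WT cells (0.84, SE 0.23, adjusted p = 0.0273) and against KO cells (0.93, SE 0.23, adjusted p = 0.0432) after quantile scaling, and lay at -0.04 and -0.33 with no scaling. Its second probe did not pass (0.43 and 0.42), and with the mean of both probes both calls were lost (0.64, adjusted p = 0.0507 against WT and 0.68, adjusted p = 0.0783 against KO cells). The call against WT was lost without WT array 1 (0.84, adjusted p = 0.134), WT array 2 (0.83, adjusted p = 0.145) or AT-3 array 1 (0.71, adjusted p = 0.115). The call against KO cells was lost without either WT array (0.93, adjusted p = 0.107), KO array 2 (0.78, adjusted p = 0.109), AT-3 array 1 (0.80, adjusted p = 0.139) or AT-3 array 2 (1.06, adjusted p = 0.102).

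Eif2b2, the beta subunit, read 9.21 and 9.07 on AT-3 arrays, 8.46 and 8.76 on KO arrays and 8.33 and 8.29 on WT arrays, and rose in AT-3 against WT cells (0.83, SE 0.22, adjusted p = 0.0248) after quantile scaling, against -0.11 with no scaling. The call was lost without either WT array (0.85 and 0.81, adjusted p = 0.125 and 0.142) or either AT-3 array (0.77 and 0.90, adjusted p = 0.0957 and 0.0599). Eif2b3, the gamma subunit of the catalytic pair, read 6.42 and 6.31 on AT-3 arrays, 5.50 and 5.49 on KO arrays and 5.91 and 5.63 on WT arrays. It rose in AT-3 against KO cells (0.87, SE 0.22, adjusted p = 0.0476) after quantile scaling, against -0.02 with no scaling, and no leave-out of 1 array kept that call (0.81 to 0.92, adjusted p = 0.0799 to 0.135). With no background correction it lay at 0.32 (adjusted p = 0.0858). The catalytic subunit Eif2b5 (0.61, adjusted p = 0.0655) and Eif2b4 (0.35, adjusted p = 0.302) did not pass in AT-3 against WT cells.

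Of the cap-binding proteins, Eif4e3 rose in both AT-3 and KO cells against WT cells, while Eif4e, the classical one, had no detected probe. Eif4e3, a relative of Eif4e that binds the cap in an atypical way, read 10.45 and 10.26 on AT-3 arrays, 10.12 and 10.74 on KO arrays and 8.51 and 8.41 on WT arrays. All AT-3 and KO arrays stood above the WT arrays and overlapped one another. Eif4e3 rose 3.72-fold in AT-3 against WT cells (1.90, SE 0.27, adjusted p = 0.0026) and 3.92-fold in KO against WT cells (1.97, SE 0.27, adjusted p = 0.00196). All 3 probes rose in both, by 1.68 to 1.90 in AT-3 cells and by 1.66 to 1.97 in KO cells, and the brightest rose in all 19 alternatives at the 0.05 threshold. Its AT-3 difference was 0.97 under all-probe scaling and 0.92 with the arrays unscaled, against 1.90 after quantile scaling. Eif4e2, which binds the cap and represses, did not pass at its brightest probe (0.38 in AT-3 and -0.21 in KO against WT cells), while its dimmest probe fell in AT-3 cells (-1.02, adjusted p = 0.0432). That dimmest probe was detected on only 1 AT-3 array.

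The 4E-binding proteins, which compete with the eIF4G scaffold for the cap-binding protein, went down where they changed. Eif4ebp2 read 8.67 and 8.69 on AT-3 arrays, 8.37 and 8.92 on KO arrays and 9.60 and 9.46 on WT arrays. All AT-3 and KO arrays stood below both WT arrays. It fell 1.80-fold in AT-3 against WT cells (-0.85, SE 0.25, adjusted p = 0.036) and 1.84-fold in KO against WT cells (-0.88, SE 0.25, adjusted p = 0.0335), and with no filter on dim probes neither passed (adjusted p = 0.0582 and 0.0554). The AT-3 difference was -1.83 under all-probe scaling and -1.89 with the arrays unscaled. The AT-3 call was lost without WT array 1 (-0.78, adjusted p = 0.186), WT array 2 (-0.92, adjusted p = 0.134), AT-3 array 1 (-0.84, adjusted p = 0.113) or AT-3 array 2 (-0.86, adjusted p = 0.101). The KO call was lost without WT array 1 (-0.81, adjusted p = 0.177), WT array 2 (-0.95, adjusted p = 0.131) or KO array 1 (-0.61, adjusted p = 0.112), or with the arrays unscaled (-0.68, adjusted p = 0.0604).

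Eif4ebp1, the best known mTOR target of the family, read 11.33 and 11.77 on AT-3 arrays, 10.73 and 10.55 on KO arrays and 11.55 and 11.29 on WT arrays. The KO arrays stood below all others, and the AT-3 and WT arrays overlapped. It fell 1.72-fold in KO against WT cells (-0.78, SE 0.25, adjusted p = 0.0468), and did not pass with no filter on dim probes (adjusted p = 0.0688). In AT-3 against WT cells it was the member nearest to 0 among the 9 brightest (0.13, adjusted p = 0.721), though all-probe scaling put it at -0.90 (adjusted p = 0.0182) and no scaling at -0.95 (adjusted p = 0.0143). AT-3 against KO cells gave 0.91 (adjusted p = 0.0568). Its KO call was lost without WT array 1 (-0.65, adjusted p = 0.249), WT array 2 (-0.91, adjusted p = 0.133), KO array 1 (-0.87, adjusted p = 0.0881) or KO array 2 (-0.69, adjusted p = 0.12). Eif4enif1, the 4E-transporter that carries the cap-binding protein to sites of mRNA storage and decay, read 9.52 and 9.54 on AT-3 arrays, 9.75 and 9.94 on KO arrays and 9.83 and 9.92 on WT arrays. It did not pass in AT-3 (-0.35) or KO cells (-0.03) against WT cells, although its second probe fell in AT-3 cells (-0.73, adjusted p = 0.0406).

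Eif4g2, also called DAP5, is a scaffold that lacks the site for the cap-binding protein and serves cap-independent initiation. It read 9.13 and 8.89 on AT-3 arrays, 10.14 and 10.12 on KO arrays and 9.20 and 9.04 on WT arrays. Only the KO arrays stood apart. Eif4g2 rose 2.02-fold in KO against WT cells (1.01, SE 0.22, adjusted p = 0.0116) and was 2.18-fold lower in AT-3 than in KO cells (-1.12, SE 0.22, adjusted p = 0.0209), with AT-3 against WT at -0.11 (adjusted p = 0.73). Its second probe behaved differently, with 7.33 and 7.82 on AT-3 arrays, 9.34 and 7.91 on KO arrays and 5.69 and 5.0 on WT arrays. That probe rose in AT-3 (2.23, adjusted p = 0.0113) and in KO cells (3.28, adjusted p = 0.00254) against WT cells, and the third probe passed in none. With the mean of the 3 probes the KO difference was 1.65, and at the brightest probe AT-3 against KO cells gave -2.23 under all-probe scaling and -2.32 with the arrays unscaled. The KO call of the brightest probe was lost without WT array 1 (1.09, adjusted p = 0.0653) or WT array 2 (0.93, adjusted p = 0.103), and the call between AT-3 and KO cells without either WT array (-1.12, adjusted p = 0.0613), KO array 2 (-1.13, adjusted p = 0.0534) or AT-3 array 2 (-1.0, adjusted p = 0.102).

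The helicases and their helpers showed no call at the brightest probe. Eif4a1, the main helicase, lay at 0.75 in AT-3 (adjusted p = 0.051) and 0.54 in KO cells (adjusted p = 0.134) against WT cells. Eif4a2, its paralog, read 12.19 and 12.22 on AT-3 arrays, 12.53 and 12.87 on KO arrays and 12.60 and 12.85 on WT arrays, and was the bright member nearest to 0 in KO against WT cells (-0.02). In AT-3 against WT cells Eif4a2 lay at -0.51 (adjusted p = 0.13), and its dimmest probe fell (-1.08, adjusted p = 0.019). That dimmest probe was detected on only 1 AT-3 array. Eif4a3, which belongs to the exon junction complex, lay at 0.24 in AT-3 and 0.22 in KO against WT cells. Eif4h, a helicase cofactor, lay at 0.26 and 0.14 in AT-3 and KO against WT cells. Eif4b, another cofactor, was detected on 1 AT-3, 2 KO and 0 WT arrays. On AT-3 arrays it read 4.31, not detected, and 6.17, beside 4.33 and 4.59 on WT arrays. These overlap, so no bound is given for AT-3 cells. On KO arrays it read 5.81 and 4.92. The probe met the detection rule through AT-3 and KO arrays only, so no bound is given for KO cells either. At this probe neither AT-3 nor KO cells passed against WT cells (adjusted p = 0.335 and 0.273 in limma). Its second probe, also not detected on WT arrays, lay at 0.20 in KO against WT cells (adjusted p = 0.576).

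Factors for start codon choice and for subunit joining followed no common direction. Eif1b, a close relative of the start codon fidelity factor eIF1, read 10.81 and 10.54 on AT-3 arrays, 10.97 and 10.77 on KO arrays and 10.03 and 9.97 on WT arrays. It rose in KO against WT cells (0.87, SE 0.22, adjusted p = 0.0222) and lay at 0.68 in AT-3 against WT cells (adjusted p = 0.0519). The KO call was lost without WT array 1 (0.91, adjusted p = 0.112), WT array 2 (0.84, adjusted p = 0.139) or KO array 1 (0.77, adjusted p = 0.0743), and under detected-probe scaling (0.59, adjusted p = 0.0707). Eif1a, which places the initiator tRNA with eIF1, lay at 0.02 in AT-3 and -0.77 in KO cells (adjusted p = 0.0642) against WT cells. Eif5b, the GTPase that joins the subunits, read 5.56 and 4.49 on AT-3 arrays, 6.83 and 6.35 on KO arrays and 5.21 and 5.80 on WT arrays, with 1 AT-3 array below detection. The KO arrays stood above all others. Eif5b was lower in AT-3 than in KO cells (-1.56, SE 0.39, adjusted p = 0.0475), and neither AT-3 (-0.48) nor KO cells (1.08, adjusted p = 0.0744) passed against WT cells. That call was lost without either WT array (-1.56, adjusted p = 0.0837), KO array 1 (-1.32, adjusted p = 0.154), KO array 2 (-1.80, adjusted p = 0.0938) or AT-3 array 2 (-1.03, adjusted p = 0.184), and under detected-probe scaling (-0.97, adjusted p = 0.0556), with no background correction (-0.58, adjusted p = 0.0759) and with no filter on dim probes (adjusted p = 0.145). Eif5, which makes eIF2 hydrolyse its GTP, lay at -1.06 in AT-3 against KO cells (adjusted p = 0.0742). Eif6, which keeps the subunits apart, lay at 0.44 in AT-3 and 0.28 in KO cells against WT cells and did not pass.

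Several genes were read differently by their probes. Of the 19 genes with more than 1 detected probe, 0 had probes called in both directions, while 9 in AT-3 against WT cells, 4 in KO against WT cells and 4 in AT-3 against KO cells had both called and uncalled probes. Counted as probes, 20 of 64 rose and 5 fell in AT-3 against WT cells, beside 15.4% and 17.2% of all tested probes. In KO against WT cells 12 rose and 2 fell, beside 15.6% and 15.7%, and in AT-3 against KO cells 3 rose and 3 fell, beside 5.21% and 5.3%. Eif5a, whose protein helps ribosomes past difficult peptide bonds, was flat at its brightest probe (0.07 in AT-3 and 0.00 in KO against WT cells). Its other probes rose in KO against WT cells (1.75, adjusted p = 0.0254, and 1.64, adjusted p = 0.028), where the WT arrays differed by 1.16 and 1.18 from each other. Eif1ad, named for a domain like that of eIF1A, lay at 0.71 in AT-3 against WT cells at its brightest probe (adjusted p = 0.0928) and fell at the second (-0.89, adjusted p = 0.0262). The positions of these probes in the transcripts are not given in the sources used here.

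**Figure D4:**
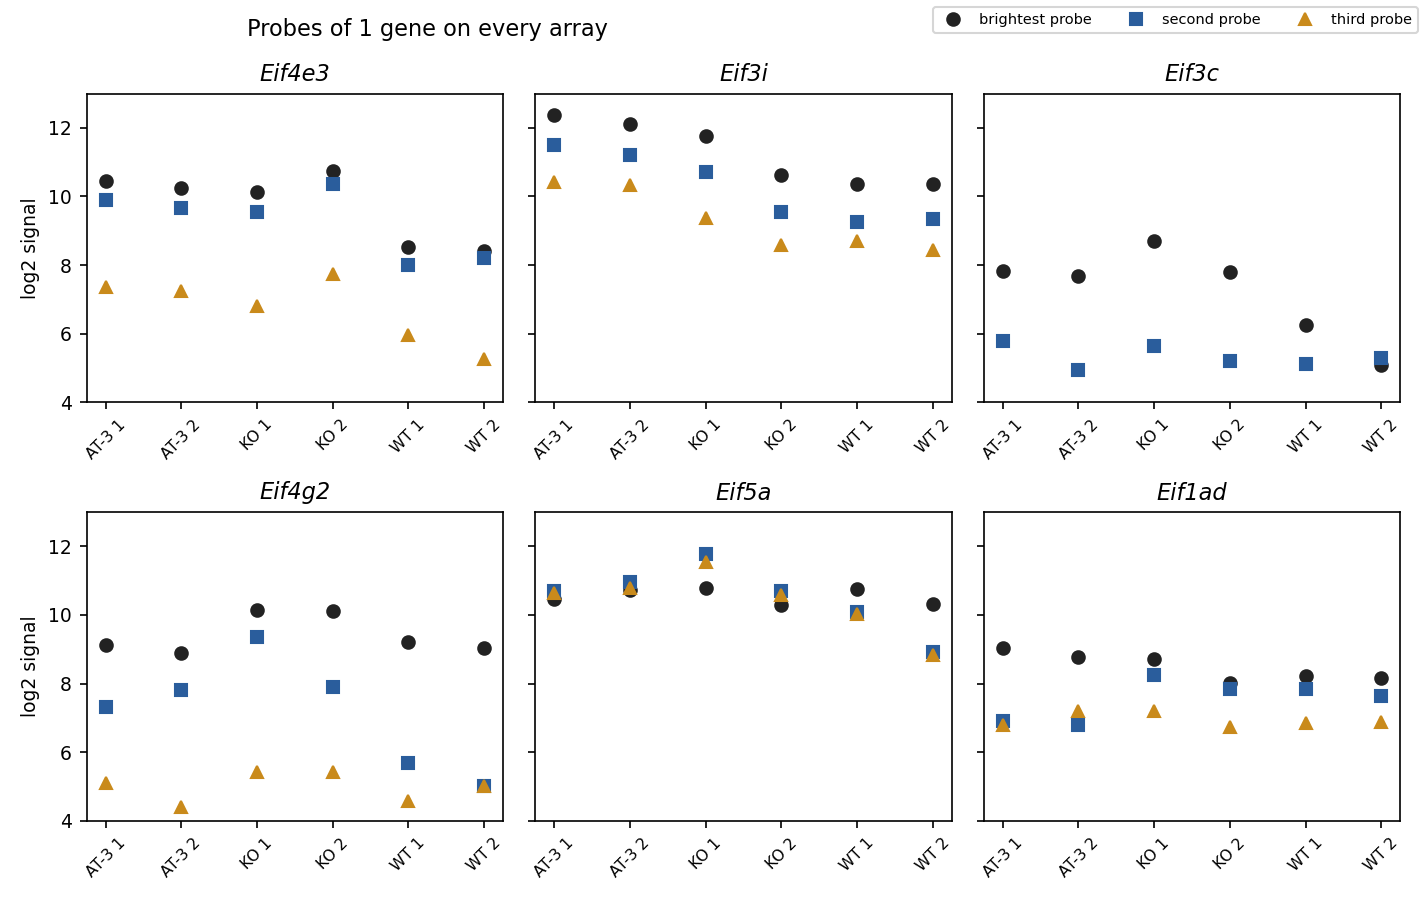
Normalized log2 signal (y axis) of each detected probe of 6 Eif genes on the 6 arrays (x axis), with probes ordered by brightness. The 3 probes of Eif4e3 and of Eif3i move together across the arrays, whereas in Eif3c, Eif4g2, Eif5a and Eif1ad the brightest and the second probe differ.

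The KO arrays differed more from each other than the arrays of the other groups did. The median gap between the 2 arrays of a group over the 36 genes was 0.21 in AT-3, 0.44 in KO and 0.15 in WT cells, and the median SE of a difference was 0.245. The KO arrays lay apart in the marker sums too, with cell cycle genes at 17397 on KO array 1 and 4498 on KO array 2. Eif3i, Eif3c, Eif3b, Eif2a, Eif3k and Eif3l were all higher on KO array 1 than on KO array 2, and Eif4e3, Eif4ebp2 and Eif5 were lower. Arrays of AT-3 and WT cells did not overlap for 28 of the 36 genes (24 above and 4 below), beside 73.6% of all named genes. KO and WT arrays did not overlap for 26 (21 above and 5 below), beside 70.3%, and AT-3 and KO arrays for 23 (17 above and 6 below), beside 54.5%.

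The rest of the translation machinery was read from lists of genes chosen with earlier results of these data known, and their counts stand beside 18.1% higher and 17.5% lower in AT-3 and 16.4% and 17.1% in KO against WT cells among all named genes. Of 12 elongation factor genes, 4 rose and 1 fell in AT-3 and 2 rose and 1 fell in KO against WT cells, where no scaling gave 1 and 3 in AT-3 and 4 and 1 in KO cells. The KO share is close to that of all named genes. Every rise counted among the elongation genes, apart from those of Eef2, was lost in some fits that left out an array. Eef2, the translocase of the ribosome, read 9.56 and 9.5 on AT-3 arrays, 9.63 and 8.78 on KO arrays and 7.33 and 6.06 on WT arrays. Its kinase Eef2k, which switches it off, read 5.17 and 4.86 on AT-3 arrays, of which 1 detected it, 6.71 and 5.89 on KO arrays and 8.20 and 8.17 on WT arrays. The pair moved oppositely: Eef2 rose in AT-3 (2.84, SE 0.44) and KO cells (2.51, SE 0.44) and Eef2k fell in AT-3 (-3.17, SE 0.31) and KO cells (-1.88, SE 0.31). These 4 calls were kept without any 1 array and under all 4 scalings (highest adjusted p without an array 0.0438). Of 17 genes of mTOR and cap regulation, 6 rose and 2 fell in AT-3 and 4 rose and 3 fell in KO against WT cells, where no scaling gave 2 and 7 in AT-3 and 6 and 2 in KO cells. All of these falls were lost in some fits that left out an array. So were the AT-3 rises of Rptor, Pabpc1, Larp1 and Cyfip2 and the KO rises of Rptor and Pabpc4. Mlst8, a subunit of both mTOR complexes, rose in AT-3 (2.65, SE 0.28) and KO cells (3.87, SE 0.28), with 11.37 and 10.66 on AT-3 arrays, 12.23 and 12.25 on KO arrays and 8.27 and 8.47 on WT arrays.

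Of 7 eIF2 kinase and phosphatase genes, 2 fell and 0 rose in each of AT-3 and KO against WT cells, with Eif2ak4 not detected; under no scaling 3 fell in AT-3 cells, and 2 rose and 2 fell in KO cells. Eif2ak3, which encodes the kinase PERK of the endoplasmic reticulum, read 5.56 and 5.56 on AT-3 arrays, 6.16 and 6.93 on KO arrays and 8.19 and 8.15 on WT arrays, and fell in AT-3 (-2.61, SE 0.29) and KO cells (-1.62, SE 0.29). Ppp1r15a, the stress-induced phosphatase subunit GADD34, read 9.46 and 7.81 on AT-3 arrays, 8.49 and 8.96 on KO arrays and 11.28 and 11.65 on WT arrays, and fell in AT-3 (-2.83, SE 0.50) and KO cells (-2.74, SE 0.50). Its KO call was lost without WT array 2 (-2.56, adjusted p = 0.0516) or KO array 1 (-2.51, adjusted p = 0.051). Of 10 output genes of the integrated stress response, the programme set off by phosphorylated eIF2, 5 fell and 1 rose in AT-3 and 7 fell and 1 rose in KO against WT cells, where no scaling gave 8 and 1 in AT-3 and 7 and 1 in KO cells. The KO rise was that of Atf4, the main transcription factor of the programme, and was lost without WT array 1 (0.71, adjusted p = 0.217), WT array 2 (0.90, adjusted p = 0.14), KO array 1 (0.83, adjusted p = 0.102) or KO array 2 (0.78, adjusted p = 0.0934). The fall of Sesn2, a stress-induced brake on mTOR, was lost in both comparisons without WT array 1 (-1.33 in AT-3 and -1.37 in KO cells, adjusted p = 0.156 and 0.15) or WT array 2 (-2.10 and -2.15, adjusted p = 0.0573 and 0.0535), in AT-3 cells without AT-3 array 1 (-1.60, adjusted p = 0.112) or AT-3 array 2 (-1.82, adjusted p = 0.0776), and in KO cells without KO array 1 (-1.08, adjusted p = 0.0981). Atf3, a transcription factor of that programme, read 6.22 and 6.17 on AT-3 arrays, 6.13 and 7.60 on KO arrays and 9.69 and 10.57 on WT arrays. It fell in AT-3 (-3.94, SE 0.49) and KO cells (-3.27, SE 0.49), calls kept without any 1 array. Slc7a11, the cystine carrier, was at least 22.8-fold lower in AT-3 than in WT cells, a bound set against the lowest detected signal of each AT-3 array since neither detected it, and fell by 2.91 in KO against WT cells. Asns, asparagine synthetase, went opposite ways, with 10.40 and 9.77 on AT-3 arrays, 6.71 and 7.01 on KO arrays and 8.12 and 8.25 on WT arrays (1.90 in AT-3 and -1.32 in KO against WT cells, SE 0.27). Its KO call was lost without WT array 1 (-1.39, adjusted p = 0.0586), WT array 2 (-1.26, adjusted p = 0.0813) or KO array 1 (-1.17, adjusted p = 0.0552).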

How the data were processed

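RNA of CD11b+Gr-1high splenocytes was measured on 6 Illumina bead arrays, 2 per group. The deposited raw table gives each probe's intensity, not normalized, and its detection p-value; per the submitters' processing notes the authors used GenomeStudio. The authors' deposited log2 values matched quantile-normalized log2 intensity without background correction. Here limma 3.58.1 in R 4.3.3 applied neqc to the intensity (normexp by detection p-value, an offset of 16, quantile scaling, log2), and lmFit with eBayes was fitted to all 6 arrays, with 3 residual and 4.532 prior degrees of freedom. P-values were adjusted by Benjamini-Hochberg over 17631 probes. Of 45281 probes, 34885 had 1 gene symbol, 18 several and 10378 none. Of the single symbols, 34807 were assigned through the Entrez number, whether or not they changed, and 78 were kept from the platform. By the rule for named genes, values on every array were given for the members with the largest called differences in each comparison whose arrays did not overlap, the 4E-binding proteins, Eif2s3x, Eif2s3y and the bright member nearest to 0, and at most 2 genes a list and direction; the other members were added after their values were seen. Members and lists were chosen with earlier results of these data known. Alternatives covered background correction, scaling, the filter on dim probes, probe choice, the fit and each array left out. The number of arrays limits the precision. Eif1, Eif2s1, Eif3g, Eif4g1 and Eif3j2 were not analysed here.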

Additional observations from a re-analysis of the deposited data

How the results depend on the processing

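With 2 arrays per group, leaving out 1 array decided many calls, and the scaling moved the AT-3 counts together with those of all named genes; the causes were not tested. Relative to all named genes the Eif median in AT-3 against WT cells was higher by 0.59 after quantile scaling and by 0.13 under the other 3. Those 3 differ only by a constant per array, so their excess is the same by construction. Counts are Eif genes called of 36. In AT-3 against WT cells, 12 rose and 1 fell: leaving out 1 array gave 3 to 16 and 0 to 1, all-probe scaling 2 and 10, no scaling 2 and 11, and an adjusted p under 0.01, a stricter threshold, 5 and 0. There 2 fell with no background correction, with the authors' log2 values and with the mean of a gene's probes, and 0 with no filter on dim probes. In KO against WT cells, 7 rose and 2 fell: leaving out 1 array gave 2 to 10 and 0 to 2, and the stricter threshold 2 and 0; 1 fell with no scaling and 0 with no filter. In AT-3 against KO cells, 2 rose and 2 fell: leaving out 1 array gave 0 to 3 and 0 to 2, detected-probe scaling 5 and 1, all-probe scaling 0 and 20, no scaling 0 and 22, and both the stricter threshold and a fit on only the groups compared 0 and 0. There 1 fell with no background correction, with an offset of 50, with the authors' log2 values, with no filter and with detection under 0.01 on all 6 arrays.

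Among members called after quantile scaling, the values that turned sign were Eif2b1 in AT-3 against KO cells (-0.228 under all-probe scaling, -0.326 with no scaling), Eif2b1 in AT-3 against WT cells (-0.038 with no scaling), Eif2b2 in AT-3 against WT cells (-0.059 and -0.114 under these scalings), Eif2b3 in AT-3 against KO cells (-0.017 with no scaling) and Eif3d in AT-3 against WT cells (-0.025 with no scaling). Of 491 values of the 26 calls under the alternatives at the same threshold, 353 kept the call and 7 turned sign; of 1549 values of the 82 uncalled differences, 149 gained a call and 135 turned sign, among them Eif1b, Eif3f and Eif4a1 in AT-3 against WT cells with no scaling.

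Over all tested probes, deviations of same-numbered arrays from their group means were little correlated between groups (-0.05, 0.00 and 0.08). Quantile scaling removes shifts of a whole array, and each group held 2 arrays. These correlations therefore cannot exclude that same-numbered arrays share an experiment. With the array number as a replicate block, 12 rose and 1 fell in AT-3 against WT cells, 6 rose and 1 fell in KO against WT cells, and 0 rose and 2 fell in AT-3 against KO cells.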

Other observations

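Other growth genes were read from lists chosen with earlier results of these data known. Among all named genes 18.1% rose and 17.5% fell in AT-3 and 16.4% and 17.1% in KO against WT cells after quantile scaling. Of 12 ribosome biogenesis genes, 4 rose and 0 fell in AT-3 and 1 rose and 0 fell in KO against WT cells after quantile scaling, where no scaling gave 2 and 2 in AT-3 cells and 3 and 0 in KO cells. Apart from that of Npm1, the AT-3 rises were each lost in some fits that left out an array. Npm1, a nucleolar chaperone, rose by 2.10 in AT-3 cells (SE 0.31, adjusted p = 0.00303 in limma) and by 1.07 in KO cells (adjusted p = 0.0346). The AT-3 call was kept without any 1 array. The KO call was kept only without KO array 2, with values of 0.63 to 1.52 over the 6 leave-outs.

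Of 9 termination and recycling genes, 4 rose and 0 fell in AT-3 and 2 rose and 0 fell in KO against WT cells after quantile scaling, where no scaling gave 2 and 2 in AT-3 cells. Pelo, which rescues stalled ribosomes, rose by 1.78 in AT-3 cells (SE 0.23, adjusted p = 0.00197), and Gspt2, a release factor GTPase, by 1.49 (SE 0.22, adjusted p = 0.00288). Both calls were kept without any 1 array and under all 4 scalings. The other rises counted in this list were each lost in some fits that left out an array. In KO against WT cells Pelo rose by 0.95 (adjusted p = 0.0181), which was lost without WT array 1 (0.87, adjusted p = 0.127), WT array 2 (1.03, adjusted p = 0.09) or KO array 1 (0.77, adjusted p = 0.0645). Gspt2 was not detected on either KO array.

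Myc, Mycn and Mycl were not detected. Of their 4 detected partners and antagonists, 2 fell in each of AT-3 and KO against WT cells and 1 rose in KO cells. Mxd1 and Mnt, repressors that pair with Max, lay at -1.30 and -1.30 in AT-3 cells and at -0.90 and -1.33 in KO cells. The AT-3 call of Mnt was lost without WT array 1, WT array 2 or AT-3 array 1 (adjusted p up to 0.15), and that of Mxd1 without WT array 2 (-1.23, adjusted p = 0.0691). In KO cells the call of Mnt was lost without WT array 1, WT array 2, KO array 1 or KO array 2 (adjusted p up to 0.149), that of Mxd1 without WT array 1, WT array 2 or KO array 1 (adjusted p up to 0.174), and that of Max, which rose, without WT array 2 (1.11, adjusted p = 0.0799) or KO array 2 (1.40, adjusted p = 0.0569).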
